A study of Mus musculus with 22 samples.

Results

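The miR-132 and miR-212 cluster of the mouse yields 4 mature miRNAs, mmu-miR-132-5p, mmu-miR-132-3p, mmu-miR-212-5p and mmu-miR-212-3p, written below without the species prefix. All 4 were among the 1966 mature names measured in round spermatids (RS), germ cells that have completed meiosis and are haploid. The 4 names were taken as the products of this cluster, which was chosen by a measured value: miR-132-5p differed in level between the WT libraries of the 2 batches and was high in 1 of them. Small RNA was sequenced from RS of the testes of mice 75 to 85 days old, in 22 libraries. Batch 1 held 5 WT libraries and 5 libraries of knock-out (KO) mice, which lack GRTH/DDX25, a testis-specific RNA helicase of the DEAD-box family that is needed for spermatids to elongate. Batch 2 held 6 WT libraries and 6 libraries of knock-in (KI) mice, whose mutant GRTH leaves them without the phosphorylated form of the protein. All groups shared the cell isolation and the library kit, and the labels do not say whether a library came from 1 animal, so p-values measure the spread between libraries, which may be technical. KO and KI were each measured in 1 batch only, so each was compared with the WT of its own batch. For miR-132-5p these comparisons use the WT values by which the cluster was chosen, so they are not independent of that choice.

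Each miRNA gene of this kind is transcribed into a hairpin, and Drosha and Dicer release from it a short duplex with a 5p arm and a 3p arm. An Argonaute protein keeps mainly 1 arm as the guide, and the guide finds its mRNA targets chiefly through its seed, bases 2 to 8. The miR-132 and miR-212 hairpins are best known from neurons, where the transcription factor CREB induces their common primary transcript, and from ovarian granulosa cells, where luteinizing hormone does. The 3p arms are the products to which most of the described targets belong.

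Both hairpins lie on the plus strand of chromosome 11 of GRCm38, Mir212 at chr11:75173388-75173478 and Mir132 at chr11:75173682-75173747, with 203 bases between them. They sit in the first intron of the noncoding transcript 1700016P03Rik, between its exons at chr11:75172560-75172597 and chr11:75173978-75174161. The nearest protein-coding genes are Hic1 upstream and Ovca2 and Dph1 downstream, all on the minus strand. The mature sequences, from RefSeq on GRCm38, are shown because the seed decides which members could share targets. The seed is in capitals.
miR-132-5p, chr11:75173686-75173707: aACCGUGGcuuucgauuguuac
miR-132-3p, chr11:75173723-75173744: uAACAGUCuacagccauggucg
miR-212-5p, chr11:75173403-75173425: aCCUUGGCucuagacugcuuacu
miR-212-3p, chr11:75173443-75173464: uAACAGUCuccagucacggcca

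The 3p arms shared the seed AACAGUC, and no other mouse mature name among the RefSeq sequences had it. Over their whole length 17 of 22 bases were identical, with the substitutions A10C, C14U, U17C, U20C and G22A, counted from 1 at the 5′ end with the base of miR-132-3p first. The 5p arms differed from each other and from the 3p arms in the seed, ACCGUGG for miR-132-5p and CCUUGGC for miR-212-5p, and each seed belonged to 1 mature name. Each member had 1 annotated locus in the table. Whether reads counted for a member also aligned elsewhere was not tested.

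The depth behind these values differed between the batches. Total counts per library were 559957 to 1081333 in batch 1 and 2067322 to 3239357 in batch 2. A count of 3, taken as the smallest amount a library can show, corresponded to 5.36 CPM (counts per 1000000 counts of the library) in the shallowest KO library and to 0.926 CPM in the deepest WT library of batch 2. Floors of this kind cover counting error only. CPM below are scaled with TMM factors, which correct for differences in composition between libraries, and are given as mean ± SD.

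The order of the 4 members by CPM was the same in WT of both batches, miR-132-5p, miR-132-3p, miR-212-5p and miR-212-3p from high to low. All are 22 or 23 bases long, but whether the libraries capture each sequence equally well was not tested. The order is therefore one of counts and may differ from that of the amounts in the cells. In WT of batch 1, miR-132-5p had 174.2 ± 65.7 CPM (SD, n = 5), which put it at place 158 of the 844 names with a count. In the same libraries miR-132-3p had 23.2 ± 4.29 CPM, miR-212-5p 11.2 ± 3.82 CPM and miR-212-3p 1.87 ± 1.44 CPM. In WT of batch 2, miR-132-5p had 34.5 ± 4.97 CPM (SD, n = 6), place 233 of 942 names. There miR-132-3p had 23.1 ± 2.73 CPM, miR-212-5p 6.98 ± 2.20 CPM and miR-212-3p 1.37 ± 0.626 CPM. In each WT group the values of neighbours in this order did not overlap, whereas in KI the ranges of miR-132-5p (16.8 to 24.1 CPM) and miR-132-3p (15.4 to 27.6 CPM) did.

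**Figure D1:**
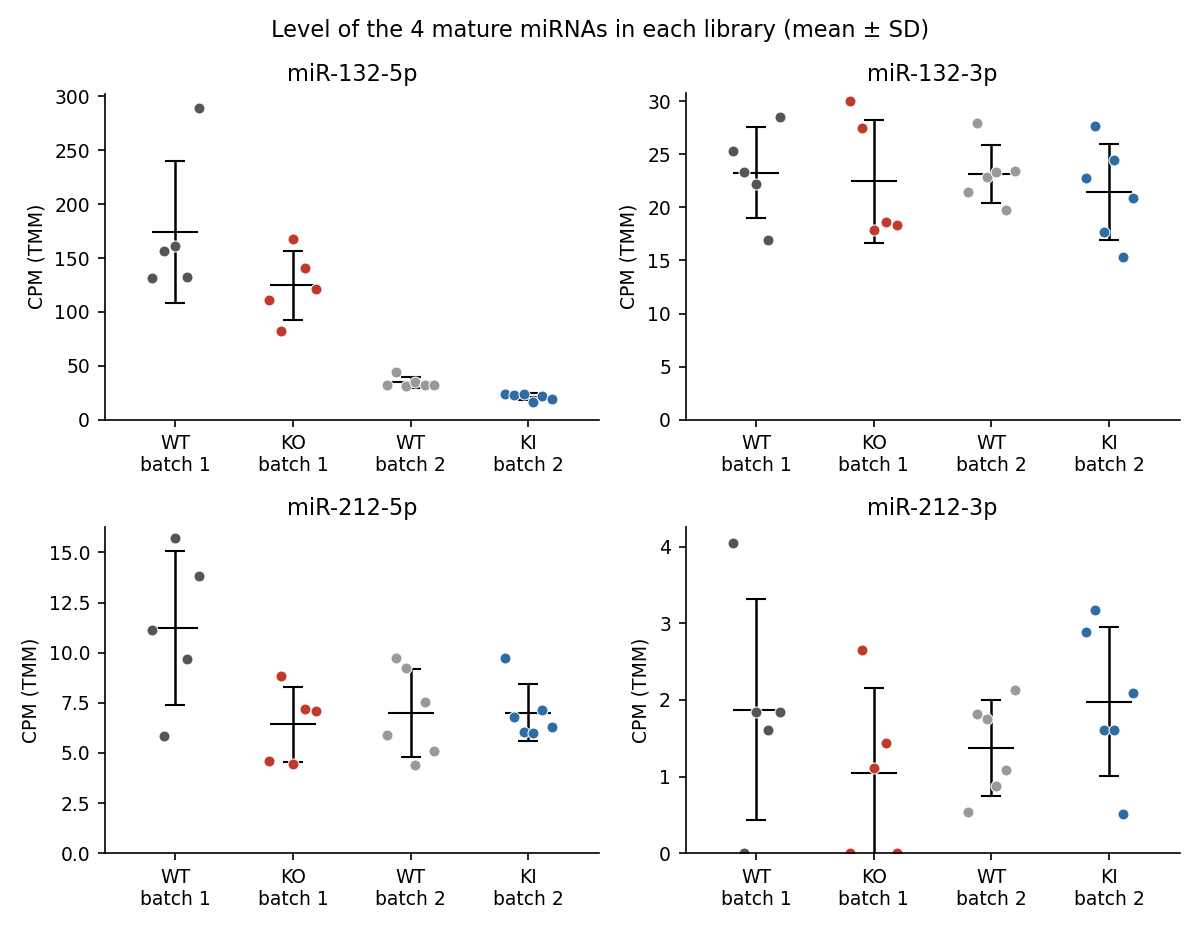
Each point is 1 library, the vertical axis is the level in CPM scaled with TMM factors, and the bars are the mean and SD of the 5 or 6 libraries of a group. miR-132-5p lies between 82.4 and 289.1 CPM in batch 1 and between 16.8 and 44.3 CPM in batch 2, while miR-132-3p stays between 15.4 and 30 CPM in all groups.

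The first comparison asked which members differed in RS of KI compared to WT. miR-132-5p fell in KI to 61.9% of the WT mean, while miR-132-3p, from the other arm of the same hairpin, and miR-212-5p did not pass the test. In WT, miR-132-5p had 32.1, 44.3, 31.2, 35.2, 32 and 32.4 CPM in replicates 1 to 6. In KI it had 23.5, 23.1, 24.1, 16.8, 22 and 18.8 CPM, so every KI library lay below every WT library. The log2 fold change was -0.66 (SE 0.12, 95% confidence interval -0.93 to -0.39), with an adjusted p of 0.00162 by the quasi-likelihood test of edgeR with Benjamini-Hochberg adjustment over all 387 names tested. Among those names 147 were called at an adjusted p under 0.1, 38.0% of them, and the groups did not overlap for 12.4%. Of the 4 members 3 could be tested in KI and 1 was called.

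For miR-132-3p, WT libraries had 21.4, 27.9, 22.8, 23.3, 19.8 and 23.5 CPM and KI libraries 22.8, 27.6, 17.7, 24.4, 15.3 and 20.9 CPM. The groups overlapped almost wholly. The log2 fold change was -0.08 (SE 0.14), its interval of -0.39 to 0.23 does not reach the value of miR-132-5p, and the adjusted p was 0.698 in the edgeR fit. miR-212-5p had 6.98 ± 2.20 CPM in WT and 7.0 ± 1.42 CPM in KI (SD, n = 6 each), on counts of 10 to 21 and 12 to 27. Its log2 fold change of 0.04 (SE 0.22, interval -0.44 to 0.52, adjusted p 0.902 in edgeR) has a wide interval at these counts. miR-212-3p, with 18 counts over the 6 WT libraries and 28 over the 6 KI libraries, did not pass the filter on low counts.

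The same question in RS of KO compared to WT gave no called member. Of the 4 members 2 passed the filter, and 0 were called, beside 41.9% of the 334 names tested (140). None reached an unadjusted p under 0.05 either, and DESeq2 also called 0. The WT values of miR-132-5p were 131.6, 156.3, 161.6, 132.1 and 289.1 CPM in replicates 1 to 5, and the KO values were 110.8, 82.4, 167.6, 140.6 and 121.6 CPM. WT replicate 5 stood above all others, KO replicate 4 lay within the range of the remaining WT libraries and KO replicate 3 just above it, and the other 3 KO libraries were below all WT libraries. The log2 fold change was -0.45 (SE 0.24, interval -0.98 to 0.07), with an adjusted p of 0.162 by the edgeR test over all names.

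The value for miR-132-5p in KO depended on single libraries and on the fit. Without WT replicate 5 the log2 fold change was -0.21 (adjusted p 0.434), and without KO replicate 3 it was -0.61 and called (adjusted p 0.0948). It was also called, at an adjusted p of 0.0631, when the 4 groups shared a single edgeR fit, and at 0.0396 when no filter on low counts was applied. The spread in WT of batch 1, a coefficient of variation of 37.7%, was well above the 7.28% that counting alone gives at this depth. In WT of batch 2 it was 14.4% against 11.6%.

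For miR-132-3p the KO values were 30, 27.5, 17.9, 18.6 and 18.4 CPM and the WT values 25.3, 23.3, 22.2, 16.9 and 28.5 CPM. KO replicates 1 and 2 were high and the other 3 low, and the mean was 96.6% of WT. The log2 fold change was 0.0016 (SE 0.20, interval -0.43 to 0.43, adjusted p 0.994 in edgeR).

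miR-212-5p was counted 11, 6, 17, 12 and 15 times in the WT libraries of batch 1 and 4, 10, 4, 5 and 5 times in the KO libraries, too few for the filter of this comparison. As a level this was 11.2 ± 3.82 CPM in WT and 6.44 ± 1.87 CPM in KO (SD, n = 5 each), and the groups overlapped. In the fit that all 4 groups share, where it passed the filter, it was called at -0.78 on the log2 scale (SE 0.32, adjusted p 0.0656 in edgeR). It was not called by DESeq2 (-0.77, adjusted p 0.200) or without the filter (-0.81, adjusted p 0.186). Of the 5 KO libraries 4 had fewer total counts than any other library of the series. miR-212-3p had 10 counts over the 5 WT libraries and 5 over the 5 KO libraries, and was at 3 counts or fewer in 14 of all 22 libraries and at 0 in 3, so no fold change is given for it.

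Whether KO and KI acted differently on a member was tested as the KO effect minus the KI effect in 1 fit of the 4 groups. For miR-132-5p the difference was 0.19 on the log2 scale (SE 0.27, interval -0.37 to 0.76, adjusted p 0.759 in edgeR), so the change in KO was not shown to differ from that in KI. Without WT replicate 5 of batch 1 it was 0.47 (unadjusted p 0.0433 and adjusted p 0.312 in edgeR). For miR-132-3p the difference was 0.07 (SE 0.25, interval -0.45 to 0.60). For miR-212-5p it was -0.81 (SE 0.39), unadjusted p 0.0499 and adjusted p 0.313 in the edgeR fit. Of 421 names 0 were called (0.00%), 67 had an unadjusted p under 0.05, and DESeq2 called 21.

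**Figure D2:**
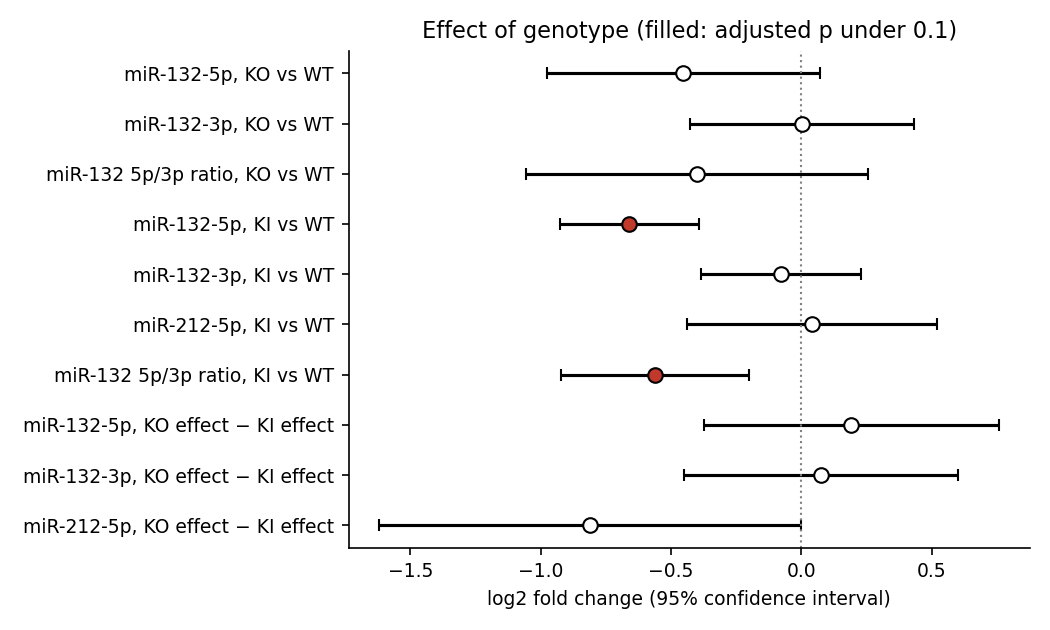
The horizontal axis is the log2 fold change with its 95% confidence interval for each member that could be tested, for the 5p over 3p ratio of miR-132, and for the difference of the 2 effects. Filled points passed an adjusted p of 0.1, which holds for miR-132-5p (-0.66) and the arm ratio (-0.56) in KI compared to WT.

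The ratio of the 5p to the 3p count was then taken within each library, where the scaling of the libraries cancels out. The 5p arm of miR-132 took a smaller share in KI than in WT. The ratio was 1.49, 1.58, 1.36, 1.5, 1.61 and 1.38 in the 6 WT libraries of batch 2 and 1.03, 0.837, 1.36, 0.691, 1.43 and 0.901 in the 6 KI libraries. KI replicate 5 lay within the WT range, replicate 3 at its lower edge and the other 4 below it. Summed over libraries, the 5p arm made up 59.9% of the miR-132 counts in WT and 49.8% in KI. The mean log2 ratio was 0.57 ± 0.10 in WT and 0.010 ± 0.41 in KI (SD, n = 6 each), against an SD of 0.26 and 0.29 from counting alone, so the WT libraries lay closer together than counting alone gives on average.

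The difference in the log2 arm ratio between KI and WT was -0.56 (SE 0.17, interval -0.92 to -0.20), with an adjusted p of 0.0488 by limma over the 104 hairpins that had at least 10 counts of each arm on average, of which 19 were called (18.3%). Without WT replicate 5 of batch 2 it was -0.54 with an adjusted p just above the threshold of 0.1. This ratio uses the same miR-132-5p counts as the comparison above and is not a second measurement of them.

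In batch 1 the ratio of miR-132 was 5.12, 6.59, 7.16, 7.65 and 9.98 in WT and 3.64, 2.97, 9.12, 7.30 and 6.41 in KO. KO replicates 1 and 2 were below all WT libraries and the other 3 within their range. The difference in the log2 arm ratio was -0.40 (SE 0.30, interval -1.06 to 0.26) with an adjusted p of 0.417 by limma, where 9 of 84 hairpins were called (10.7%). For miR-212 the 3p counts were too low for this test, and summed over libraries its 5p arm made up 85.9% of the counts in WT and 84.8% in KO of batch 1, and 83.5% in WT and 77.8% in KI of batch 2.

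**Figure D3:**
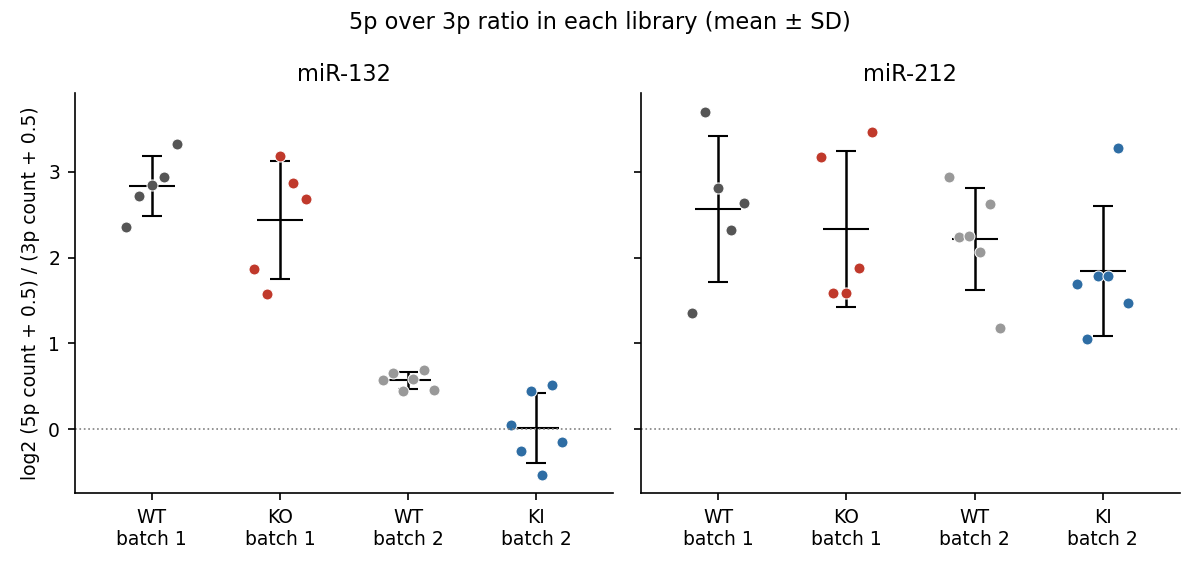
Each point is 1 library, the vertical axis is the log2 ratio of the 5p to the 3p count with 0.5 added to each, and the bars are the mean and SD of a group. For miR-132 batch 1 lies between 1.57 and 3.32 and batch 2 between -0.53 and 0.69, while the ratios of miR-212 overlap between the batches.

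The difference between the batches is what the cluster was selected on, and is given as a description with no test. In WT the mean of miR-132-5p was 5.04 times as high in batch 1 as in batch 2, and the lowest WT library of batch 1 (131.6 CPM) lay far above the highest of batch 2 (44.3 CPM). By size this was place 5 among the 322 miRNAs that averaged 10 CPM or more over the WT libraries, of which 40 differed by more than 1 on the log2 scale. In the mutant groups the KO mean was 5.83 times the KI mean. Without WT replicate 5 of batch 1, the high library, the log2 difference was 2.07 in place of 2.33.

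No such difference was seen for the other arm. The WT mean of miR-132-3p was 1.01 times as high in batch 1 as in batch 2, place 319 of 322 by size, although with library totals in place of TMM factors it was higher in batch 1 by 0.39 on the log2 scale. For miR-212-5p the WT mean of batch 1 was 1.61 times that of batch 2, and the KO mean 0.919 times the KI mean. The 5p over 3p ratio of miR-132 was thus 4.8 times as high in WT of batch 1 as in WT of batch 2. This was the largest difference among the 81 hairpins that had at least 10 counts of each arm on average in both WT groups, at 2.26 on the log2 scale, with the next at 1.82 and a median size of 0.556. The more abundant arm was the same in both batches for 76 of the 81 hairpins, and miR-132 was one of these, with the 5p arm ahead. Experimental batch, sequencing depth and everything else that was done separately for the 2 batches cannot be told apart here.

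**Figure D4:**
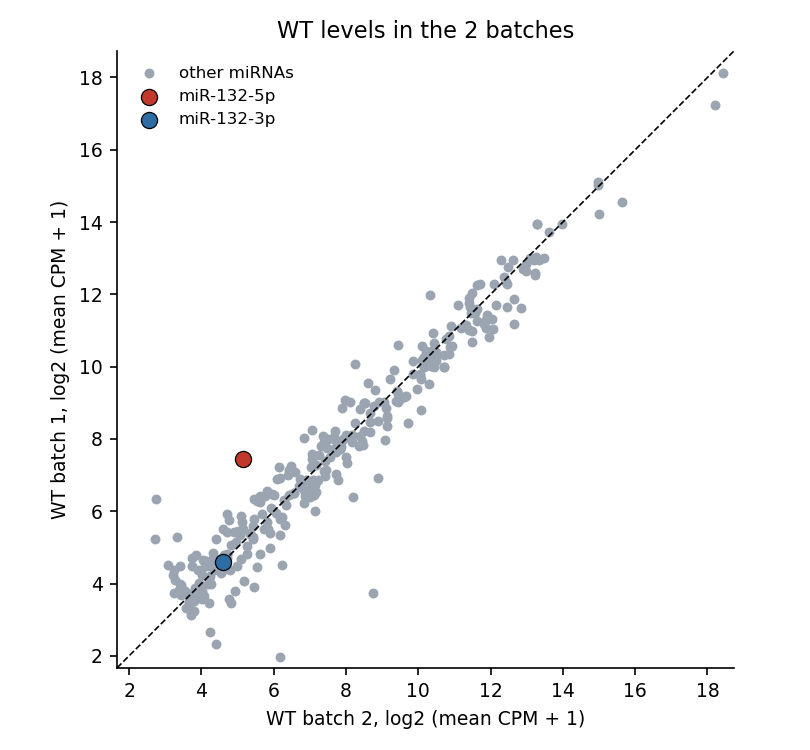
Each point is 1 of the 322 miRNAs, with its mean level in WT of batch 2 on the horizontal and of batch 1 on the vertical axis, both as log2 of mean CPM plus 1. The dashed line marks equal levels. miR-132-5p lies above the line by more than 2 units and miR-132-3p on it.

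**Figure D5:**
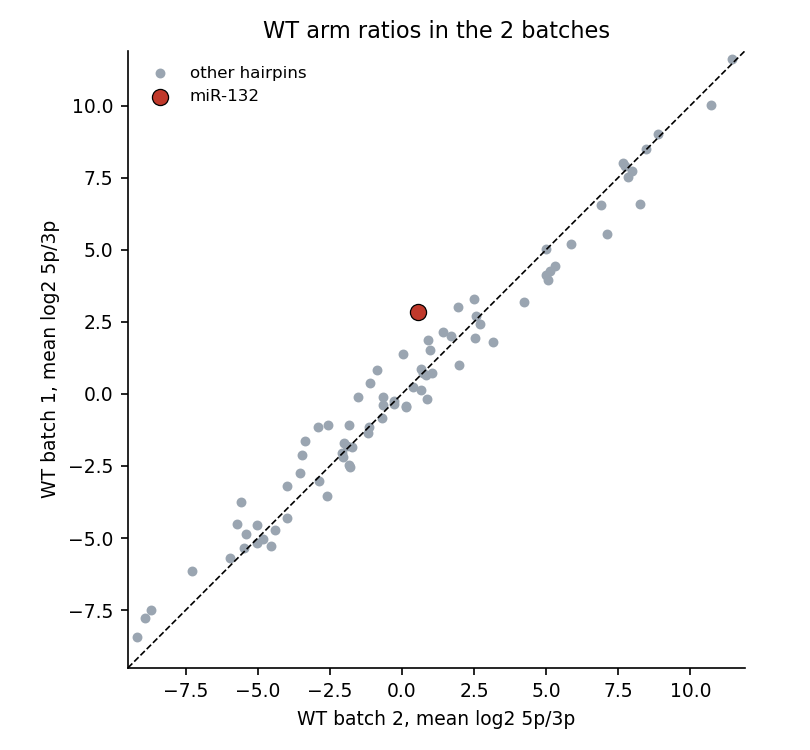
Each point is 1 of the 81 hairpins, with the mean log2 ratio of its 5p to its 3p count in WT of batch 2 on the horizontal and of batch 1 on the vertical axis. The dashed line marks equal ratios, and miR-132 lies farther from it than any other hairpin, at 0.57 in batch 2 and 2.83 in batch 1.

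No joint variation from library to library was seen for the arms of miR-132. For those of miR-212 the counts were too low to show whether they varied together. After the group means were subtracted, the correlation of miR-132-5p with miR-132-3p over the 22 libraries was r = -0.011, and with miR-212-5p 0.104. The highest value within the cluster was that of miR-212-5p with miR-212-3p, 0.517. The points share the depth and composition of their libraries, and the values of miR-212-3p rest on at most 8 counts. Those of miR-132-3p rest on 13 to 63 counts. Its coefficient of variation was 18.4% in WT and 25.8% in KO of batch 1, against 20% and 22.5% from counting alone. In batch 2 it was 11.8% in WT and 20.9% in KI, against 14.1% and 14.2%. With so much counting error, a value of r near 0 does not show that the arms of miR-132 vary apart. Among 329 miRNAs, those most like miR-132-5p were miR-463-3p (r = 0.736), miR-7234-5p (0.733) and miR-140-5p (0.700). Those most like miR-132-3p were miR-34b-3p (0.576), miR-375-3p (0.538) and miR-425-5p (0.532).

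Of 10 further miRNAs known from the nervous system, the tissue in which this cluster is best described, 7 were tested. In KI 2 were higher and 3 lower (median log2 fold change -0.058, against 0.00090 over all names). Of the 387 names tested in KI, 70 were called higher and 77 lower. In KO 0 of the list were higher and 2 lower (median -0.21, against 0.015). Of the 334 names tested in KO, 71 were called higher and 69 lower. miR-138-5p, an inhibitor of dendritic spine growth in neurons, was among the lower ones in both, at 563.7 CPM in WT and 219.2 CPM in KI (log2 fold change -1.34, adjusted p 2.27e-07 in edgeR) and at 398.9 CPM in WT and 181.5 CPM in KO (-1.11, adjusted p 0.00183). miR-128-3p also fell in both, with -0.47 in KO (adjusted p 0.00183) and -0.35 in KI (adjusted p 0.00594), and miR-219a-5p fell in KI (-0.20, adjusted p 0.0603). miR-218-5p (0.55, adjusted p 0.026) and the neuronal miR-124-3p (0.46, adjusted p 0.0182) rose in KI, and in KO they had 0.50 (adjusted p 0.161) and -0.34 (adjusted p 0.161). Of miR-21a-5p and miR-21a-3p, products of another miRNA gene that luteinizing hormone induces in granulosa cells, 1 was tested and was called in neither comparison.

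Markers of other cells were also compared between the genotypes in the same libraries. Over all names, 18.1% were called higher in KI and 21.3% in KO. Called lower were 77 of 387 names in KI and 69 of 334 in KO. Of 8 miRNAs of blood and immune cells 6 were tested, and 5 rose in KI and 3 in KO, with 0 that fell (median log2 fold change 0.54 in KI and 0.40 in KO, against 0.00090 and 0.015 over all names). Their summed level was 2995 to 4014 CPM in WT and 3732 to 5985 CPM in KI of batch 2. In batch 1 it was 4122 to 5186 CPM in WT and 4478 to 6271 CPM in KO. Most of this sum in WT was miR-142a-3p, with log2 of mean CPM plus 1 of 12.04 in batch 1 and 11.49 in batch 2. miR-142a-3p rose in KI (log2 fold change 0.52, adjusted p 0.00175 in edgeR) and was not called in KO (0.11, adjusted p 0.391). Of 8 of vascular and stromal cells 6 were tested, and 5 rose in each comparison (median 0.68 in KI and 0.98 in KO). The tested one that was called in neither was miR-126a-3p. Its log2 fold change was -0.04 in KI (adjusted p 0.918 in edgeR) and 0.38 in KO (adjusted p 0.327). Both arms of miR-199a were among those that rose. The summed level of this list was 1872 to 2991 CPM in WT and 2933 to 6404 CPM in KI of batch 2. In batch 1 it was 1039 to 2713 CPM in WT and 2527 to 5261 CPM in KO. The 6 miRNAs taken as markers of meiotic and haploid germ cells were products of miR-34b, miR-34c and miR-449. They were the most abundant list in all groups, at 338495 to 420409 CPM in batch 2 and 170023 to 238792 CPM in batch 1. Of these, 1 fell in KI, and 1 rose and 2 fell in KO. No marker was at 0 in all libraries. The part of these shifts in the values of miR-132-5p was not tested, and in bulk libraries fewer cells of a type and less RNA per cell cannot be told apart.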

How the data were processed

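The deposited values are raw counts of reads for each mature miRNA in each library. Per the labels and the methods, the authors trimmed adapters with cutadapt 3.4 (minimum length 15), aligned with Bowtie2 2.4.2 to GRCm38 with up to 100 alignments per read, and counted on the sense strand with featureCounts (Subread 2.0.1). The study used DESeq2 by batch at an adjusted p of 0.1. The labels place KO with the earlier batch tag and the methods place KI in the first batch, and the labels were followed.

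Here the counts were tested with the quasi-likelihood test of edgeR 4.0.16 (R 4.3.3, TMM, filterByExpr), KO and KI each against the WT of its batch, and their difference in 1 fit of 4 groups, with Benjamini-Hochberg adjustment over all names. The log2 ratio of the arms (0.5 added to each count, means of at least 10) was tested with limma 3.58.1. Alternatives were DESeq2 1.42.0, other scaling, no filter, single libraries left out and a replicate block. No libraries were near-identical. The members and lists were chosen with earlier results of these data known, as were the rules by which other miRNAs are named: the 3 with the highest correlation over libraries for each miR-132 arm, among miRNAs averaging 10 CPM or more, and up to 3 called ones per list by size. In the nervous system list, miR-128-3p and miR-219a-5p in KI were added after their values were seen. The same holds for miR-126a-3p and miR-142a-3p in the lists of other cells. Python 3.11.15 and matplotlib 3.10.9 were used.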

Additional observations from a re-analysis of the deposited data

Results flagged for a closer look

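Of 24 sets of libraries screened (the 4 members and the arm ratio of both hairpins in each of the 4 groups), 4 held a library farther from the others than Dixon's 95% limit, and chance gives about 1 in 20, or 1.2 here. WT replicate 5 of batch 1 was high in miR-132-5p, with log2(CPM + 1) of 8.18 against 7.05 to 7.35 in the other 4 (gap over range 0.740). Its summed markers of blood and immune cells (4625 CPM) and of vascular and stromal cells (2118 CPM) lay within the range of the other WT libraries of that batch. The blood and immune sum is mostly miR-142a-3p and says little about the other markers of that list. The cause of the high miR-132-5p value was not tested. WT replicate 2 of batch 2 was also high in miR-132-5p, at 5.50 against 5.01 to 5.18 (0.658), and without it the KI log2 fold change was -0.58 with an adjusted p of 0.00494 in edgeR. KI replicate 1 was high in miR-212-5p, at 3.43 against 2.81 to 3.03 (0.644). KI replicate 5 was high in the log2 arm ratio of miR-212, at 3.27 against 1.05 to 1.78 (0.669), where miR-212-3p had 1 count.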

How the results depend on the processing

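The fall of miR-132-5p in KI was called under all 18 alternatives, with log2 fold changes of -0.58 to -0.68 and, with single libraries left out, -0.70 to -0.58. In KO, miR-132-5p was called without the filter (-0.52) and in the fit of 4 groups (-0.49), and ranged from -0.61 to -0.21 with single libraries left out. The number of members called in KO was then 1 without the filter, 2 in the fit of 4 groups and 0 to 1 with a library left out. Over all names, 130 of 937 were called in KO without the filter and 152 of 421 in the fit of 4 groups. With a library left out, 112 to 153 names were called of 336 to 341 tested. Values near 0 changed sign: miR-132-3p in KO was -0.0495 without the filter, -0.0228 in the fit of 4 groups and -0.11 to 0.0757 with a library left out. In KI it was 0.0103 with library totals and -0.17 to 0.0061 with a library left out, and miR-212-5p was -0.0409 to 0.15. The KO effect minus the KI effect of miR-132-3p was -0.0084 without the filter, and -0.0865 to 0.18 with a library left out. The arm ratio of miR-132 in KI ranged from -0.66 to -0.45 with a library left out and in KO from -0.59 to -0.18. At a minimum of 30 counts it could not be tested in KO.

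Replicate numbers are shared across groups, but same-numbered libraries did not all deviate together (correlations of -0.11 to 0.17 in batch 1 and -0.11 to 0.53 in batch 2, the own number being the best match for 1 of 5 and 3 of 6), so they were not treated as pairs. With the replicate block miR-132-3p in KO was -0.0217, miR-132-5p was -0.43 in KO and -0.66 in KI, and no call of a member or of the arm ratio changed (adjusted p 0.0796 for the latter in KI). The number of names called for the difference of the effects rose from 0 to 25 with the block, to 21 with DESeq2 and to 26 without KI replicate 2.

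With library totals in place of TMM the median log2 fold change of all names moved from 0.015 to 0.13 in KO and from 0.00090 to 0.088 in KI, and the split of higher and lower calls from 71 and 69 to 101 and 44 in KO and from 70 and 77 to 96 and 53 in KI. The WT difference of miR-132-3p between batches was -0.0765 to 0.10 with a library left out. The causes were not tested. Depth limits miR-212-3p and, in batch 1, miR-212-5p.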
